A study of Malus domestica with 6 samples.

Results

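Expression of 4 MYB transcription factor genes was examined in the pulp of Granny Smith and Jonagold apples, out of 46558 genes listed. The genes were MD11G1006500 (MdMYB5) on chromosome 11, MD17G1073900 (MdMYB92) on chromosome 17, MD09G1051000 (MdMYB306) on chromosome 9 and MD10G1124100 (MdMYB308) on chromosome 10 of the GDDH13 genome. The MYB names are those used by the study, and the reference table at hand did not annotate these identifiers. The study had listed the genes as transcription factors with higher expression in Jonagold, on the same libraries. The difference between the cultivars is therefore given here as a description, without a test. The 4 genes are a subset of the MYB genes the study listed so, and a further one is not analysed here. Each cultivar had 3 RNA-seq libraries, and each library was made from the pooled pulp of several fruits, with the peel removed. Granny Smith is a green-skinned and Jonagold a red-skinned cultivar, and both were grafted on the same rootstock, left unbagged and picked fully ripe at one site in one season. Differences between the cultivars and differences in how far their fruits had ripened cannot be told apart in this design. The labelled tissue was not checked against markers, since the identifiers of such genes were not annotated in the sources used here.

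MYB proteins bind DNA through imperfect helix-turn-helix repeats and form one of the largest families of plant transcription factors. Members of the family activate or repress genes of phenylpropanoid, flavonoid, cutin, wax and suberin synthesis, and some control cell shape. In Arabidopsis, MYB5 acts in seed coat and trichome development, and grapevine relatives of MYB5 regulate flavonoid genes. Arabidopsis MYB92 activates genes of suberin and fatty acid synthesis. The snapdragon gene MYB308 gave its name to a group of repressors that lower phenylpropanoid and lignin synthesis when overexpressed in tobacco. These roles come from other species and were not measured in these libraries.

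The deposited values were given as FPKM, a measure that scales the fragments of a gene by transcript length and library depth. The recovered reads ranged from 17081863 to 17259098 in the Granny Smith libraries and from 14193282 to 16353408 in the Jonagold libraries. In Jonagold a read contributed 1.29 to 1.46 times the FPKM that it did in Granny Smith replicate 1. That is more than the lower recovered reads alone would give, so the deposited scale was not set by this depth only. All 4 MYB genes had a mean of at least 1 FPKM over the 6 libraries, and all 4 passed the filter on low values. MdMYB92 passed only through Jonagold, with a mean of 0.301 FPKM in Granny Smith, against 2.48 FPKM in Jonagold.

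MdMYB306 had the highest mean expression level of the 4 genes in Jonagold. Its expression was 3.54, 6.24 and 6.92 FPKM in Granny Smith replicates 1, 2 and 3, and 20.04, 18.8 and 18.3 FPKM in Jonagold replicates 1, 2 and 3. The Jonagold libraries lay close together, whereas Granny Smith replicate 1 was low against the other Granny Smith libraries. The mean was 5.57 ± 1.79 FPKM in Granny Smith, against 19.1 ± 0.883 FPKM in Jonagold (SD, n = 3 libraries), a ratio of 3.42. The lowest Jonagold library was 2.65 times the highest Granny Smith library. In bulk pulp, fewer cells expressing a gene and less RNA per cell cannot be told apart.

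MdMYB5 was the MYB gene that the study also measured by qRT-PCR, which it reported as higher in Jonagold. In the libraries MdMYB5 measured 5.76, 7.95 and 4.98 FPKM in Granny Smith replicates 1, 2 and 3. In Jonagold it measured 14.5, 13.7 and 11.3 FPKM. The cultivars did not overlap, and Jonagold replicate 3 was the lowest Jonagold library, at 1.42 times the highest Granny Smith library. The mean was 6.23 ± 1.54 FPKM in Granny Smith, against 13.1 ± 1.67 FPKM in Jonagold (SD, n = 3), a ratio of 2.11, the smallest of the 4 genes.

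MdMYB308 was expressed at 2.45, 0.680 and 1.31 FPKM in Granny Smith replicates 1, 2 and 3 and at 5.45, 4.48 and 2.96 FPKM in Jonagold replicates 1, 2 and 3. Granny Smith replicate 1 came near Jonagold replicate 3, and the cultivars were separated by a factor of 1.20 only. The mean was 1.48 ± 0.899 FPKM in Granny Smith, against 4.29 ± 1.26 FPKM in Jonagold (SD, n = 3), a ratio of 2.902. Without Granny Smith replicate 1 the ratio was 4.33, and without Granny Smith replicate 2 it was 2.28.

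MdMYB92 had the lowest expression and the largest ratio. It was at 0.0903, 0.345 and 0.468 FPKM in Granny Smith replicates 1, 2 and 3 and at 2.22, 3.31 and 1.91 FPKM in Jonagold replicates 1, 2 and 3. The lowest Jonagold library was 4.08 times the highest Granny Smith library, the widest gap of the 4 genes. The mean was 0.301 ± 0.192 FPKM in Granny Smith, against 2.48 ± 0.736 FPKM in Jonagold (SD, n = 3), a ratio of 8.23. When single libraries were left out, the ratio ranged from 6.10 without Granny Smith replicate 1 to 11.4 without Granny Smith replicate 3.

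**Figure D1:**
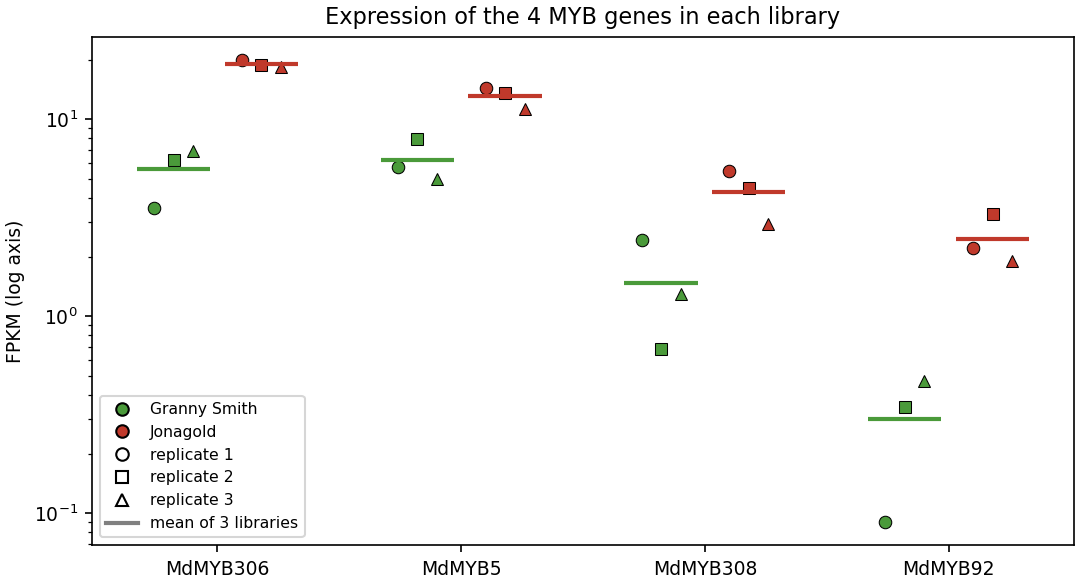
Expression in FPKM (log axis) of the 4 MYB genes in each of the 6 libraries, with 1 point per library, green for Granny Smith and red for Jonagold, the marker shape giving the replicate and the bar the mean of 3 libraries. No gene's cultivars overlap, the gap is widest for MdMYB92 and narrowest for MdMYB308, and Granny Smith replicate 1 is lowest for MdMYB306 and MdMYB92 but highest for MdMYB308.

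In all 4 genes every Jonagold library was above every Granny Smith library, a pattern shown by 30.4% of the 20993 tested genes. Nothing is read from this count, because the genes had been chosen for this contrast. On log2(FPKM + 1), a scale that understates low genes, the difference was 0.98 for MdMYB5, 1.13 for MdMYB308, 1.41 for MdMYB92 and 1.65 for MdMYB306. The order of the 4 genes thus depends on the scale, since MdMYB92 had the largest ratio of mean FPKM and MdMYB306 the largest difference on log2(FPKM + 1).

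The order of the levels within a library was MdMYB306, MdMYB5, MdMYB308 and MdMYB92 in every Jonagold library. In Granny Smith, MdMYB308 was above MdMYB92 in every library and both were below the other 2 genes, but the first place changed. The FPKM of MdMYB306 divided by that of MdMYB5 was 0.615, 0.784 and 1.39 in Granny Smith replicates 1, 2 and 3 and 1.38, 1.38 and 1.63 in Jonagold replicates 1, 2 and 3. Such a ratio is free of the library's scaling, and here Granny Smith replicate 3 lay within the Jonagold range. MdMYB92 relative to MdMYB5 was at 0.0157, 0.0434 and 0.0939 in Granny Smith replicates 1, 2 and 3 and at 0.153, 0.242 and 0.170 in Jonagold replicates 1, 2 and 3, without overlap between the cultivars. MdMYB308 relative to MdMYB5 ranged from 0.0855 to 0.426 in the Granny Smith and from 0.263 to 0.376 in the Jonagold libraries, so that the cultivars overlapped.

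The 4 genes took different places among the genes above 0 FPKM. Counted from the highest, MdMYB306 stood at 18.3% to 18.8% of the detected genes in the Jonagold libraries and at 36.7% to 49.9% in the Granny Smith libraries. MdMYB5 stood at 23.6% to 27.9% in Jonagold and 33.5% to 43.2% in Granny Smith. MdMYB308 lay in the middle of the list, at 42.9% to 54.2% in Jonagold and 56.0% to 73.5% in Granny Smith. MdMYB92 was near the bottom in Granny Smith, at 77.7% to 92.5%, and stood at 51.4% to 61.7% in Jonagold. A rank does not depend on the scaling of a library, and by rank the cultivars did not overlap in any of the 4 genes. The genes had been chosen for this contrast, and the share of all genes with this pattern by rank is not given here. Nothing is therefore read from this count either.

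The reads behind these levels differed widely between the genes. MdMYB306 rested on 120, 221 and 249 reads in Granny Smith replicates 1, 2 and 3 and on 470, 495 and 426 reads in Jonagold replicates 1, 2 and 3. MdMYB5 had between 124 and 195 reads per Granny Smith library and between 181 and 249 per Jonagold library. MdMYB308 had 69, 20 and 39 reads in Granny Smith and 106, 98 and 57 reads in Jonagold. As plain reads, before any division by depth, Granny Smith replicate 1 was therefore above Jonagold replicate 3 for this gene. MdMYB92 had only 2, 8 and 11 reads in Granny Smith, against 34, 57 and 29 in Jonagold. Its level in Granny Smith replicate 1 stands on 2 reads, so its ratio has the largest counting error of the 4. How the counting treated reads that fit several similar MYB genes is not given in the sources used here.

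The spread between replicates was compared with the counting error expected from the mean number of reads, which covers counting only. In Jonagold, MdMYB306 had a coefficient of variation of 4.63%, close to its counting error of 4.64%. In Granny Smith it varied by 32.1% against a counting error of 7.13%, so that the spread between the pools of this cultivar was 4.50 times its counting error. MdMYB308 varied by 60.8% in Granny Smith against a counting error of 15.3%, and by 29.2% in Jonagold against 10.7%. MdMYB5 varied by 24.7% in Granny Smith and 12.7% in Jonagold, with counting errors of 8.13% and 6.72%. For MdMYB92 the variation was 63.9% in Granny Smith and 29.7% in Jonagold, with counting errors of 37.8% and 15.8%. All 4 genes had the larger coefficient of variation in Granny Smith, where they also had fewer reads on average. Relative to counting error, the spread of MdMYB92 was smaller in Granny Smith, at 1.69 times against 1.88 times in Jonagold. That of the other genes was larger in Granny Smith. The share of all tested genes with the larger coefficient in Granny Smith is not given here, so nothing is read from the count of 4. Over all tested genes the median coefficient was 13.7% for the Granny Smith and 14.5% for the Jonagold libraries.

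**Figure D2:**
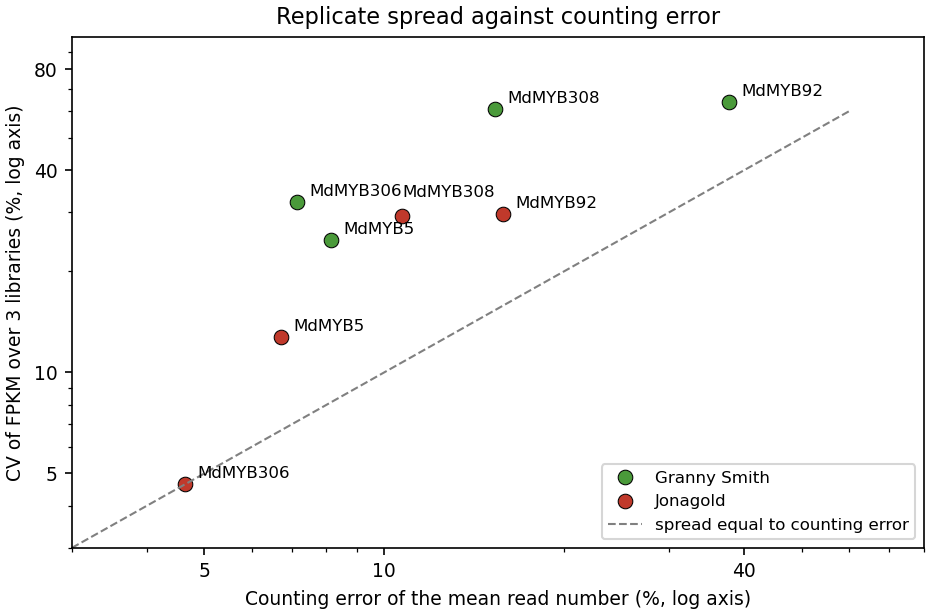
Coefficient of variation of FPKM over the 3 libraries of a cultivar against the counting error of the mean read number, both in percent on log axes, with 1 point per gene and cultivar. The dashed line marks a spread equal to counting error, on which MdMYB306 in Jonagold lies with 4.63% against 4.64%, while the other 7 points are above it.

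The replicate deviations did not run together across the 4 genes. Granny Smith replicate 1 was the lowest Granny Smith library for MdMYB306 and MdMYB92 and the highest for MdMYB308. Over the 6 libraries, the deviations from the cultivar means of log2(FPKM + 1) had a correlation of -0.60 between MdMYB306 and MdMYB308 and of 0.59 between MdMYB306 and MdMYB92. The other 4 pairs lay between -0.17 and 0.18. These are descriptions over 6 libraries that share depth and pools between the genes.

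The size of the differences depended on how the libraries were scaled. The FPKM that 1 read contributed, relative to Granny Smith replicate 1, was 0.956 in Granny Smith replicate 2, 0.942 in replicate 3, and 1.45, 1.29 and 1.46 in Jonagold. With the FPKM totals of the 6 libraries made equal, the median over all tested genes moved from 0.00 to -0.35 on the log2 scale, and the genes called by limma (adjusted p under 0.05 and at least 2-fold) were split into 1772 higher, which is 8.43% of those tested, and 3426 lower in Jonagold, against 2515 and 1960 as deposited. The ratio of MdMYB5 was then 1.60, that of MdMYB308 2.19, that of MdMYB306 2.57 and that of MdMYB92 6.09. The cultivars then overlapped in MdMYB308, whose lowest Jonagold library was at 0.955 times the highest Granny Smith library. The pattern without overlap held for 17.5% of all tested genes in this case.

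As RPM, a gene's reads scaled to the recovered reads of its library, MdMYB5 was at 8.80 ± 2.21 in the Granny Smith libraries and at 14.6 ± 1.66 in the Jonagold libraries (SD, n = 3), a ratio of 1.66. MdMYB306 was 11.5 ± 4.0 and 30.7 ± 0.981 RPM, a ratio of 2.68. MdMYB308 was 2.48 ± 1.43 and 5.73 ± 1.60 RPM, a ratio of 2.31, and its lowest Jonagold library was at 1.00 times its highest Granny Smith library. MdMYB92 was 0.408 ± 0.269 and 2.61 ± 0.769 RPM, a ratio of 6.39. All 4 genes remained higher in Jonagold on average under each of the 4 scalings shown. They had been chosen for this direction on the same libraries, so nothing is read from this count. Median-of-ratios factors left the deposited values almost unchanged, with a ratio of 2.111 against 2.108 for MdMYB5, so this scaling adds no separate check. As RPM and with equal FPKM totals, the ratio of MdMYB5 was below 2.

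**Figure D3:**
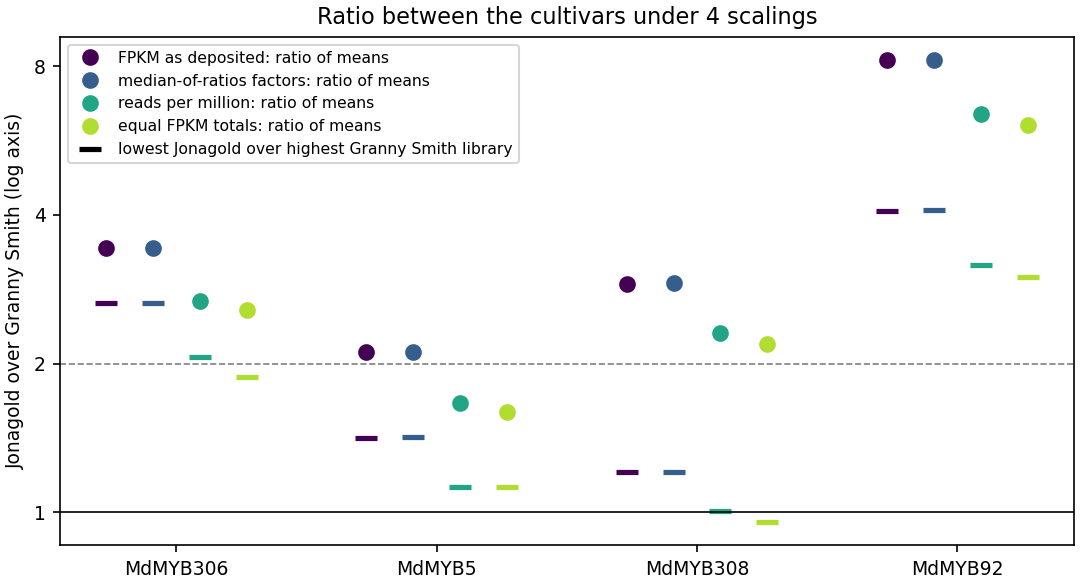
Jonagold over Granny Smith (log axis) for the 4 MYB genes under 4 scalings of the libraries, with circles for the ratio of means and bars for the lowest Jonagold over the highest Granny Smith library. The solid line marks equality and the dashed line a ratio of 2, below which MdMYB5 falls as RPM (1.66) and with equal FPKM totals (1.60), and the bar of MdMYB308 falls below 1 with equal totals (0.955).

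Other genes were compared with each MYB gene by the Pearson correlation of log2(FPKM + 1) over the 6 libraries. The genes named as most like a MYB gene were picked by this correlation on the same libraries. A shared order of replicates and correlated deviations therefore follow in part from the choice, and a link between the genes was not tested. All 6 libraries carry the difference between the cultivars, which every gene that differs shares, and a correlation above 0.95 was reached by 714 of 20989 genes for MdMYB5, 1001 for MdMYB92, 1068 for MdMYB306 and 228 for MdMYB308. Among the genes that the study listed for volatile synthesis, MdHPL (MD08G1038600), a hydroperoxide lyase that forms aldehydes, was most like MdMYB306 with r = 0.98, followed by MdAAT-8 (MD04G1147900), an alcohol acyltransferase that forms esters, with r = 0.97. MdHPL measured 0.220, 0.963 and 0.741 FPKM in Granny Smith replicates 1, 2 and 3 and 2.18, 2.31 and 2.02 FPKM in Jonagold replicates 1, 2 and 3. Like MdMYB306, it was lowest in Granny Smith replicate 1, and the deviations from the cultivar means had a correlation of 0.91. For MdMYB306 and MdAAT-8 this correlation was 0.62.

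MdAAT-8 was also the listed gene most like MdMYB92, with r = 0.98, followed by the carboxylesterase gene MdCXE-7 (MD02G1198400) with r = 0.98. MdAAT-8 measured 0.993, 3.63 and 2.45 FPKM in Granny Smith and 121, 242 and 161 FPKM in Jonagold. It shared with MdMYB92 the low Granny Smith replicate 1 and the high Jonagold replicate 2, and the deviations had a correlation of 0.77, against 0.70 for MdCXE-7. For MdMYB5, the most similar listed genes were MdPD-4 (MD04G1159900), annotated as pyruvate decarboxylase, and the threonine synthase gene MdTS-2 (MD15G1212700), both with r = 0.97. MdPD-4 measured 223, 261 and 101 FPKM in Granny Smith and 1411, 1157 and 1150 FPKM in Jonagold, and its 6 libraries had the same order as those of MdMYB5. The correlation of deviations was 0.78 for MdPD-4 and 0.84 for MdTS-2.

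MdMYB308 was most like the acyltransferase genes MdAAT-10 (MD02G1175400) with r = 0.96 and MdAAT-9 (MD02G1175300) with r = 0.94, which have neighbouring identifiers on chromosome 2. MdAAT-10 measured 1.81, 0.327 and 0.506 FPKM in Granny Smith replicates 1, 2 and 3 and 4.59, 4.14 and 3.70 FPKM in Jonagold replicates 1, 2 and 3. Its 6 libraries had the same order as those of MdMYB308, with Granny Smith replicate 1 high among the Granny Smith libraries. The deviations had a correlation of 0.89 for MdAAT-10 and 0.78 for MdAAT-9. Among all tested genes whose mean reached 10 FPKM, the most similar were MD00G1181400 for MdMYB5, MD15G1236100 for MdMYB92, MD09G1118700 for MdMYB306 and MD16G1200200 for MdMYB308, with r between 0.99 and 1.00. MD16G1200200 differed far less between the cultivars than MdMYB308, with a mean of 50.3 FPKM in Granny Smith, against 67.5 FPKM in Jonagold, and its r was 0.68 with equal FPKM totals.

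**Figure D4:**
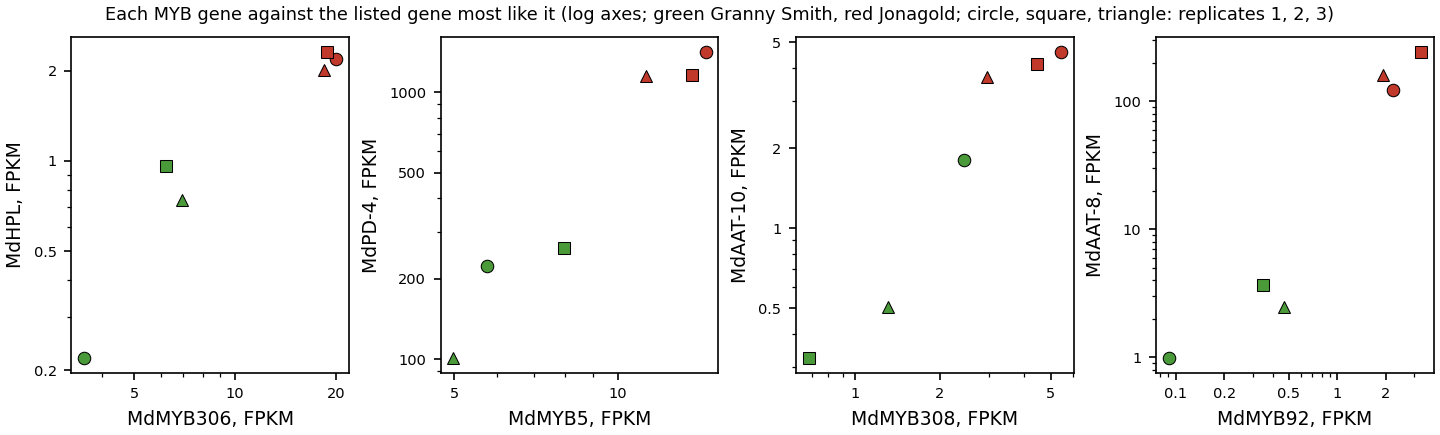
FPKM of each MYB gene (horizontal) against that of the listed gene most like it (vertical), both on log axes, with 1 point per library in green for Granny Smith and red for Jonagold. Granny Smith replicate 1 (green circle) is lowest in MdMYB306 and MdHPL (0.220 FPKM) but the highest Granny Smith library in MdMYB308 and MdAAT-10 (1.81 FPKM).

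Pathways that MYB proteins are known to regulate in other plants were described by the gene lists of the study, which had chosen them on these libraries, so that their counts are not independent evidence. Of the 14 phenylpropanoid genes, 7 reached a mean of 1 FPKM, and limma called 6 of them, 2 higher and 4 lower in Jonagold. Among all tested genes the share with a call was 21.3%, made up of 12% with the higher level in Jonagold and 9.34% with the lower. Over all 14 listed genes the median log2 fold change was 0.49, with 9 genes above 0 and 5 below. The median of the 7 tested genes had the opposite sign, -1.22, against 0.00 over all tested genes, so that no direction is given for the list. The 4 genes called lower were MdC4H-1, MdC4H-2, Md4CL and MdCCoAR. The phenylalanine ammonia-lyase gene MdPAL-2, at 0.64 on log2(FPKM + 1), stayed under the fold criterion. Its mean was 0.897 FPKM in Granny Smith, against 2.03 FPKM in Jonagold, a ratio of 2.27. At such a low level the scale of log2(FPKM + 1) understates the difference. MdC4H-1 (MD00G1221400), a cinnamate 4-hydroxylase gene, fell from 103 ± 17.2 to 44.2 ± 12.6 FPKM (SD, n = 3). MdCCoAR (MD17G1222400), a cinnamoyl-CoA reductase gene, fell from 84.7 ± 15.1 to 26.0 ± 4.43 FPKM, the lowest log2 fold change of the list at -1.67 (SE 0.17, limma adjusted p = 9.8e-05). The called genes higher in Jonagold were O-methyltransferase genes, of which MdOMT-1 (MD01G1051900) rose to 3310 ± 419.9 FPKM from 31.7 ± 7.46 FPKM, with a log2 fold change reaching 6.68 (SE 0.20, limma adjusted p = 2.7e-07). MdOMT-2 (MD05G1308600) was at 0 in every Granny Smith library and at 16.7 ± 5.66 FPKM in Jonagold.

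All 20 listed genes of fatty acid synthesis were tested and called, 18 higher and 2 lower in Jonagold, with a median log2 fold change of 2.09. With equal FPKM totals 17 of them were called, and without Jonagold replicate 1 the count was 18. The ketoacyl reductase gene MdKAR-2 (MD13G1112000) had the largest log2 fold change of this list, 4.28, and the desaturase gene MdFAD (MD15G1152700) the lowest, -1.81, while the synthase gene MdKASII (MD15G1221800) was the other gene that was lower. Of the 6 listed sesquiterpene genes, 5 were tested and called, 4 higher and 1 lower, and the median over all 6 was 2.19. The farnesene synthase gene MdAFS (MD10G1311000) had the largest log2 fold change, 3.43 (SE 0.14), and MdPMK (MD09G1247700), a phosphomevalonate kinase gene, was the gene that fell, by 1.12 on the log2 scale.

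For comparison with other transcription factors, MdNAC1 (MD16G1069500) measured 5.40 ± 2.09 FPKM in the Granny Smith and 15.2 ± 6.68 FPKM in the Jonagold libraries (SD, n = 3). MdbZIP44 (MD02G1140600) measured 3.61 ± 2.43 and 38.1 ± 12.7 FPKM. The study listed both on these libraries as well, and reported both as higher in Jonagold by qRT-PCR. The level of MdNAC1 was thus near that of MdMYB5 and MdMYB306 in both cultivars, and the ratio of MdbZIP44, 10.5, was above that of MdMYB92.

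Genes next to the MYB genes had not been used to choose them, so they were tested. The 5 identifiers listed on each side of each MYB gene gave 40 neighbours, of which 12 were at 0 in every library and 17 had a mean of at least 1 FPKM. Of these 17, 3 were called by limma, which is 17.6% and lies near the 21.3% called among all tested genes. Their median log2 fold change was 0.04. MdMYB5 and MdMYB92 had no called neighbour among 5 and 3 tested.

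The listed identifier just before MdMYB306, MD09G1050700, rose to 4.74 ± 0.695 FPKM in Jonagold from 1.55 ± 0.407 FPKM (SD, n = 3), and its log2 fold change was 1.17 (SE 0.17, limma adjusted p = 7.1e-04). It was not called with equal FPKM totals, which left 2 called neighbours. Near MdMYB308, MD10G1123700 rose to 16.8 ± 2.36 FPKM from 3.60 ± 0.841 FPKM, and its log2 fold change was 1.96 (SE 0.17, limma adjusted p = 4.1e-05). MD10G1123500, the identifier before it in the list, fell to 0.634 ± 0.383 FPKM from 12.4 ± 4.53 FPKM, and its log2 fold change was -2.99 (SE 0.28, limma adjusted p = 6.6e-05). Called genes close to MdMYB308 thus differed in both directions, while the gene just after it, MD10G1124200, measured 8.18 FPKM in Granny Smith, against 8.72 FPKM in Jonagold. None of these neighbours has a gene name in the sources used here.

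**Figure D5:**
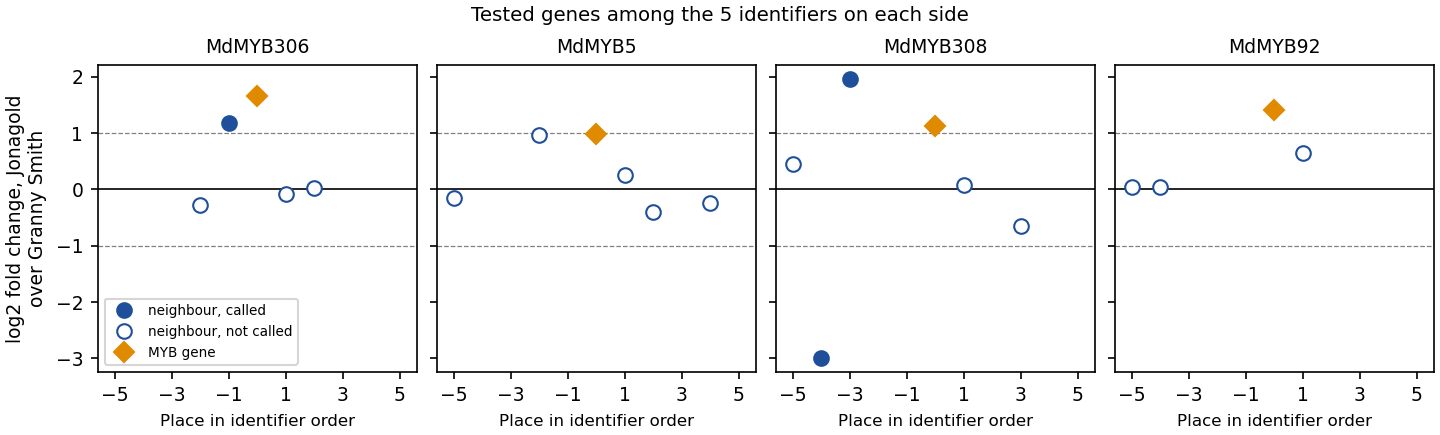
Log2 fold change, Jonagold over Granny Smith, of the tested genes among the 5 listed identifiers on each side of each MYB gene (blue circles, filled where called by limma) and of the MYB gene itself (orange diamond). Of 17 tested neighbours 3 are called, 1 near MdMYB306 and 2 near MdMYB308, the latter in opposite directions at 1.96 and -2.99.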

How the data were processed

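The pulp of ripe fruits was sequenced as 3 pooled libraries per cultivar. The authors deposited FPKM values per gene and library, computed with Cufflinks 2.2.1 after filtering and alignment to the GDDH13 genome of apple, as the study's methods state. The submitters' notes name mouse builds and another aligner, which cannot apply to apple identifiers. The deposited FPKM values were divided into whole reads, library factors and gene factors. The tolerance was 0.001 reads, and wider for genes not solved at first. This recovered reads for 34278 of 34279 genes above 0. They are the smallest whole numbers in proportion, so the true reads of a gene could be a multiple of them. Recovery was tested on simulated data, up to such a multiple. Jonagold was compared with Granny Smith in limma 3.58.1 under R 4.3.3 (lmFit, eBayes with trend) on log2(FPKM + 1), for the 20993 genes whose mean reached 1 FPKM. Benjamini-Hochberg adjustment covered all of them. Calls required an adjusted p under 0.05 and a log2 fold change of 1 or more in either direction. Summaries used Python 3.11.15. Nothing in the labels says whether the libraries of a cultivar came from separate trees, so p-values measure only the spread between pools. Named genes were the 4 MYB genes, called neighbours, the extremes and minority genes of each list, the listed genes most like each MYB gene, MdNAC1 and MdbZIP44. Members and lists were chosen with earlier results of these data known. Other settings tried were leaving out each library, a replicate block, other scalings and filters, another pseudocount, and fits without the trend or the fold criterion. No deposited column was left out.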

Additional observations from a re-analysis of the deposited data

How the results depend on the processing

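On log2(FPKM + 1) the differences of all 4 MYB genes stayed positive under every alternative tried, which is the direction the genes were chosen for. With equal FPKM totals they were 0.62 for MdMYB5 and 1.29 for MdMYB306. A pseudocount of 0.1 gave 2.79 for MdMYB92 and 1.60 for MdMYB308. The log2 ratio of mean FPKM without a pseudocount was 3.04 for MdMYB92, and that of mean RPM, an alternative chosen after seeing the data, was 0.73 for MdMYB5 and 2.68 for MdMYB92. The pseudocount and the scaling shift these values by their construction. With each library left out, the differences ranged from 0.85 to 1.15 for MdMYB5, 1.24 to 1.53 for MdMYB92, 1.40 to 1.81 for MdMYB306 and 0.88 to 1.40 for MdMYB308. Without the fold criterion, 10371 of the 20993 tested genes were called, and 7 of the 17 tested neighbours, which is a smaller share. With 10 identifiers on each side, 5 neighbours were called from a larger set. The tested number of that set is not given here, so nothing is read from this count. Same-numbered libraries of the cultivars had correlations of deviations of 0.16, 0.28 and -0.03, and differently numbered libraries from -0.25 to 0.11. These values do not settle whether the numbers pair the libraries. A replicate block gave 4501 called genes against 4475 and changed no count of called neighbours or list genes. Of the listed genes most like a MYB gene, Spearman correlations were 0.89 for MdHPL with MdMYB306 and for MdAAT-8 with MdMYB92, and other listed genes were then more similar. The same held for MdPD-4 with MdMYB5 and MdAAT-10 with MdMYB308 when deviations from the cultivar means were used. MdMYB92, with 2 to 11 reads per Granny Smith library, is limited most by depth.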
